A study of Mus musculus with 4 samples.

Results

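Enpep encodes aminopeptidase A, a membrane metalloprotease known on mouse B-cell precursors as the BP-1 antigen. It is described here across 4 single-cell libraries as 1 gene of 32285 in the deposited matrices, found by its symbol. The gene was picked for its high level in the library from cells lacking both Mll3 and Mll4, so its levels in that library are a description and carry no test. The material was Kit-positive, CD45.2-positive mouse bone marrow taken 10 weeks after transplantation, and there was 1 library for each of the groups, which the labels name "control", "Mll3 deleted", "Mll4 deleted" and, for loss of both genes, "Mll3/4 deleted", and which are called the control, Mll3, Mll4 and Mll3/4 libraries below. Mll3 and Mll4, the products of Kmt2c and Kmt2d, are related histone methyltransferases that act at enhancers. The alleles behind each deletion, any Cre driver, the strain, the recipients and the number of animals are not given in the sources used here, and nothing ties a cell to an animal. Each comparison is therefore between libraries and not between conditions, and every interval below is a 95% interval for counting error only.

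Aminopeptidase A removes an acidic residue from the amino end of peptides and is best known for converting angiotensin II to angiotensin III in kidney and brain. In mouse bone marrow the BP-1 antigen appears on B-cell precursors, is carried through the large pre-B stage and is absent from mature B cells, and interleukin-7 is known to raise it. Together with heat-stable antigen (Cd24a) and CD43 (Spn), it divides B precursors into the stages named by Hardy.

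In GENCODE M21 on GRCm38, Enpep (ENSMUSG00000028024) is a protein-coding gene on the minus strand of chromosome 3, from 129269175 to 129332720, over 63546 bases. Its 1 protein-coding transcript has 20 exons, and 1 processed pseudogene, Gm42628, lies within the gene on the opposite strand. The 300 bases around the start in RefSeq (GRCm38.p6, chr3:129332700-129332999, minus strand, 250 before and 50 after the start) are shown so that the letters known for STAT factors, which act below the interleukin-7 receptor, and for B-lineage factors can be looked up beside the levels. They are printed 5′ to 3′, with matches to 2 of 5 searched motifs in capitals.
Enpep promoter: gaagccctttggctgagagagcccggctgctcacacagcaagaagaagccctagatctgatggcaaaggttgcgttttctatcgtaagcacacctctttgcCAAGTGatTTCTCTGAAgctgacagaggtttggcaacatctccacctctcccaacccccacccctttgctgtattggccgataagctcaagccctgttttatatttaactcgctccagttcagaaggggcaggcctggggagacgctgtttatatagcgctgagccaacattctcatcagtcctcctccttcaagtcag
CAAGTG, beginning 149 bases before the start, matched the E-box letters CANNTG, which 72.3% of 32851 promoter windows of this length hold on either strand. TTCTCTGAA, beginning 141 bases before the start, matched the STAT-type letters TTCNNNGAA, held by 8.30% of the windows, and the matches do not overlap. No match was found for CCCNNGGG (EBF-type, 13.7% of windows), GTAAACA (FOXO-type, 3.65%) or TGTGGT (Runx-type, 16.8%), which says only that these letters are not in this window.

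After filtering, 7146 control cells, 5860 Mll3, 5350 Mll4 and 6917 Mll3/4 cells were kept, with a median of 15754, 16963.5, 5142 and 9965 gene UMIs (unique molecules counted) per cell. Kit, the antigen used for the isolation, had a UMI in 45.2% to 73.3% of the kept cells. Of the targeted genes, Kmt2c stood at 47.9 CPM (counts per 1000000 gene UMIs of the cells summed) in control, 27.2 in the Mll3, 59.2 in the Mll4 and 34.8 in the Mll3/4 library. Kmt2d stood at 25.8, 21.6, 25.0 and 24.7 CPM in the same order, so its level did not follow the labels over all cells. These are 3′ counts, and where the deleted part lies is not given, so the genes do not check the labels. The Mll4 library stood apart in depth and in Xist, the transcript of the inactive X chromosome, at 0.519 CPM against 954.8 to 1839 CPM in the others. Between 3 and 15 cell barcodes were shared by any pair of libraries.

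Over all kept cells Enpep was close to absent in 3 libraries and abundant in the fourth. It had 114 UMIs in control, 69 in the Mll3 library, 54 in the Mll4 library and 25789 in the Mll3/4 library. These counts correspond to 0.742 CPM (0.612 to 0.892) in control, 0.507 CPM (0.395 to 0.642) in the Mll3, 1.65 CPM (1.24 to 2.15) in the Mll4 and 332.1 CPM (328.0 to 336.2) in the Mll3/4 library. The Mll3/4 library was thus far above the others, and the Mll3 library was the lowest. On the log2 scale the ratio to control was -0.55 (-1.001 to -0.10) in the Mll3 library, 1.15 (0.66 to 1.63) in the Mll4 library and 8.81 (8.54 to 9.08) in the Mll3/4 library. With cells thinned to 2000 UMIs each, the ratio was 0.023 in the Mll4 library, where cells are shallowest, and 7.15 in the Mll3/4 library. With a pseudocount of 1 CPM, the unthinned Mll3/4 ratio ranked 4 of 15158 genes with at least 20 counts in either library, of which 12.0% were at least 2-fold higher than control. In such a total, more cells of a type and more RNA per cell cannot be told apart, and the cells were therefore divided into classes.

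Clusters were called B-cell progenitor-like from fixed markers, among them Cd79a, Vpreb1, Igll1, Ebf1, Pax5 and Rag1. Enpep itself was left out of the clustering and the naming. The class held 471 cells (6.59% of kept cells) in control, 369 (6.30%) in the Mll3 library, 143 (2.67%) in the Mll4 library and 6830 (98.7%) in the Mll3/4 library. In each of the first 3 libraries it contributed most of the Enpep UMIs, namely 100, 60 and 48, and in the Mll3/4 library it contributed 25765. All 12 markers of the class reached 1 CPM in its control, Mll3 and Mll4 cells, and 11 did in its Mll3/4 cells, where Vpreb2 was the exception. Cd3e, a T-cell receptor subunit, was at 0 in the class in all 4 libraries. Some other markers of foreign classes were not. In control, 4 of 8 T/NK markers reached 1 CPM. The 8 neutrophil markers summed to only 78.1 CPM in Mll3/4 cells. Their sums were far larger elsewhere, at 6327 (Mll4), 2433 (control) and 1790 (Mll3). Stem and multipotent progenitor, dendritic and plasma cell markers went the other way, with higher sums in Mll3/4 cells than in control. The part of these transcripts in the Enpep ratios was not tested.

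Within B-cell progenitor-like cells the libraries kept the same order, with a smaller gap between control and the Mll3/4 library and a larger one between control and the Mll4 library. Enpep stood at 20.8 CPM (15.9 to 26.8) in the Mll3 library, 31.4 CPM (25.6 to 38.2) in control, 134.7 CPM (99.3 to 178.7) in the Mll4 library and 339.5 CPM (335.4 to 343.7) in the Mll3/4 library. The lowest neighbours in this order, the Mll3 library and control, had intervals that overlap slightly, although the interval of their ratio, given next, leaves out 0 on the log2 scale. The other neighbours did not overlap. The ratio to control was 10.8-fold in the Mll3/4 library (log2 3.43, 3.15 to 3.73), 4.29-fold in the Mll4 library (log2 2.10, 1.57 to 2.61) and 0.663-fold in the Mll3 library (log2 -0.59, -1.08 to -0.12). The Mll3/4 cells exceeded the Mll4 cells by 1.33 (0.93 to 1.77) on the log2 scale. Their ratio to control exceeded the summed log2 values for Mll3 and Mll4 cells by 1.93 (1.31 to 2.54). The libraries share the same control, and no test over replicates can be made of this difference. It rests on 48 Enpep UMIs of the Mll4 class, and the ratios behind it change with how the class is chosen. With cells chosen by the B220 antibody, the log2 ratios to control were -0.93 (Mll3), 1.24 (Mll4) and 3.52 (Mll3/4). With cells chosen by B-cell transcripts they were -1.04, 2.46 and 4.24.

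**Figure D1:**
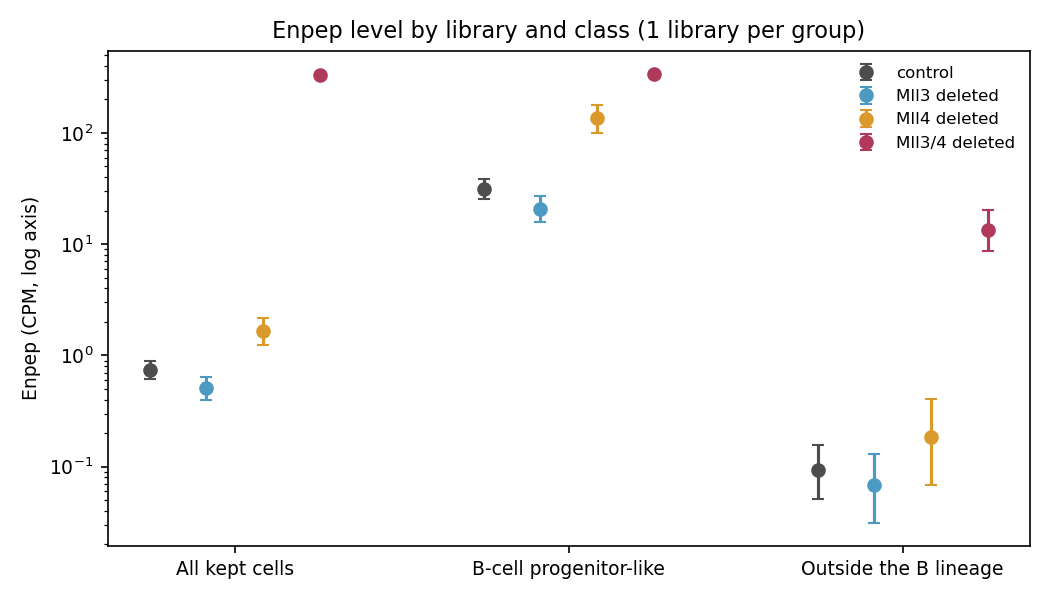
Enpep in CPM (log axis) for all kept cells, B-cell progenitor-like cells and cells outside the B lineage, with 1 point per library and bars for the 95% Poisson interval. The Mll3/4 point lies at 339.5 CPM within the class, against 31.4 CPM in control and 134.7 CPM in the Mll4 library.

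The difference over all cells thus has a part that follows class shares and a part that lies within classes. Giving each class its control level of Enpep and the class shares of UMIs of the Mll3/4 library yields 30.7 CPM, against 332.1 CPM observed. On the log2 scale, 5.37 of the 8.81 followed class shares and 3.43 lay within classes. For the Mll4 library the class shares alone gave -0.86 and the within-class part 2.01. Its 2.67% of B-cell progenitor-like cells lowered the total while the level per cell was higher.

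Against all genes, the within-class ratio was high but not at the very top. Of 13456 genes tested in the class between the Mll3/4 library and control, 9.45% were at least 2-fold higher and 7.39% at least 2-fold lower, and Enpep ranked 105 from the highest. Between the Mll4 library and control, 8.19% of 8733 genes were at least 2-fold higher and 8.52% at least 2-fold lower, and Enpep ranked 22. Its ratio in the Mll3 library was at percentile 8.84 of 8869 genes, of which 0.417% were at least 2-fold higher and 1.89% at least 2-fold lower.

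Single cells were compared at equal depth, since median UMI counts in the class ran from 2276 in the Mll4 to 9936 in the Mll3/4 library. Without thinning, 12.95% of control, 11.1% of Mll3, 23.1% of Mll4 and 78.4% of Mll3/4 cells of the class had an Enpep UMI. With each cell thinned to 2000 UMIs, the shares were 7.03% of 441 control cells (4.83% to 9.83%), 3.70% of 351 Mll3 cells (1.99% to 6.25%), 16.2% of 74 Mll4 cells (8.67% to 26.6%) and 42.5% of 6747 Mll3/4 cells (41.4% to 43.7%), with Clopper-Pearson intervals. Thinning left out 30, 18, 69 and 83 shallower cells. The order of the libraries was that of the CPM values, but the control interval overlapped those of the Mll3 and Mll4 libraries. With cells chosen by the B220 antibody in place of clusters, Mll4 and control were closer. The shares were then 7.10% (3.60% to 12.3%) in the Mll4 library and 6.55% (4.55% to 9.07%) in control, again with overlapping intervals. Outside the B lineage, 0.0455% of 6591 control cells had a UMI at the same depth.

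The spread among cells was wide in the Mll3/4 library. At 2000 UMIs, 57.5% of its cells had 0 Enpep UMIs, 26.0% had 1, 10.4% had 2 and 3.88% had 3, and the highest had 17. The variance was 1.57 times the mean, against 1.53 in control, 1.11 in the Mll3 and 1.75 in the Mll4 library. Few cells carried the smaller counts of the other libraries. Without thinning, the 5 highest cells held 28% of the Enpep UMIs of the class in control, 30% in the Mll3 and 35.4% in the Mll4 library, but 0.644% in the Mll3/4 library. Without those cells the levels were 23.0, 14.8, 92.0 and 337.9 CPM.

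**Figure D2:**
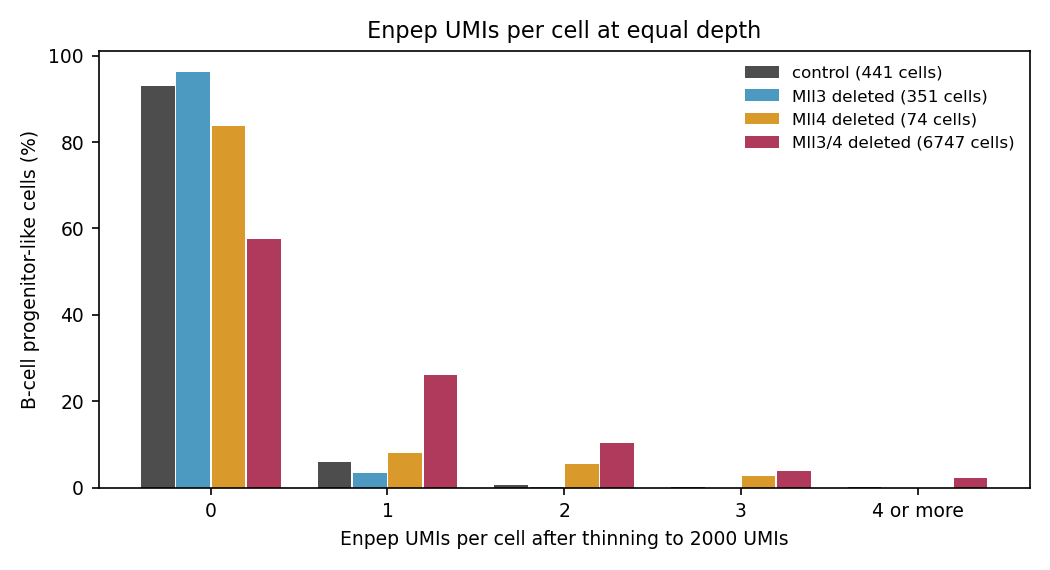
Share of B-cell progenitor-like cells (percent) by number of Enpep UMIs after thinning each cell to 2000 UMIs, with 1 bar per library. Cells with 0 UMIs made up 93.0% of control cells and 57.5% of Mll3/4 cells.

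Different clusters hold the class in different libraries. Nearly all control, Mll3 and Mll4 cells fell into clusters 0 and 15, and nearly all Mll3/4 cells into clusters 21, 22, 23 and 24. The exceptions were 1 control cell in cluster 21, with 4 of the 100 Enpep UMIs of the class in control, and 2 Mll4 cells in cluster 22, with 1 UMI. Cluster 15 is the dividing one of the first pair, with 1400.4 CPM of the proliferation antigen Mki67 in control against 119.7 CPM in cluster 0. In control, Enpep stood at 37.3 CPM (27.4 to 49.6) in cluster 0 and 25.5 CPM (18.9 to 33.8) in cluster 15. In the Mll4 library it stood at 161.2 CPM (98.5 to 248.96) in cluster 0 and 117.8 CPM (77.6 to 171.4) in cluster 15, so both clusters were above control.

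Among the clusters of the Mll3/4 library, Enpep was highest in cluster 24 at 410.1 CPM (391.3 to 429.6; 361 cells) and next in cluster 21 at 373.9 CPM (365.8 to 382.2; 2587 cells). Clusters 23 and 22 followed, at 330.6 CPM (322.8 to 338.5; 1308 cells) and 310.6 CPM (304.2 to 317.0; 2568 cells). The interleukin-7 receptor gene Il7r stood at 802.7 CPM in cluster 24, 1055.4 in cluster 21, 562.1 in cluster 23 and 531.0 in cluster 22. Dntt, the terminal transferase of early B precursors, stood at 927.8, 1001.9, 525.1 and 465.1 CPM in the same order. Enpep was thus higher in the pair of clusters with more Il7r and Dntt, and the lowest of the 4 clusters was still above clusters 0 and 15 of control. Clusters 23 and 24 were the dividing ones, with 1683.1 and 1477.9 CPM of Mki67.

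**Figure D3:**
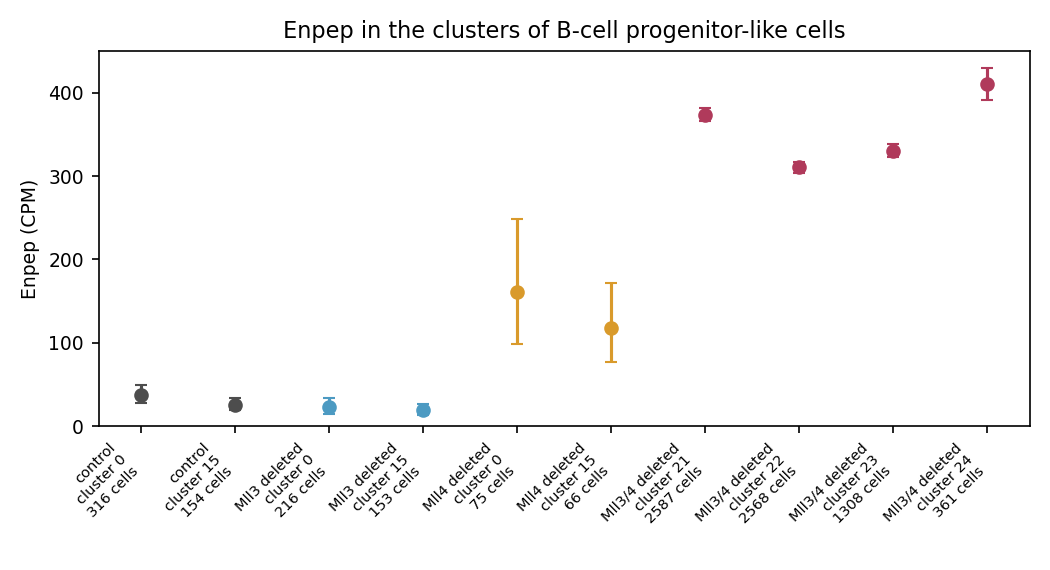
Enpep in CPM for each cluster of B-cell progenitor-like cells with at least 10 cells in a library, with bars for the 95% Poisson interval. All clusters of the Mll3/4 library lie between 310.6 and 410.1 CPM, above both clusters of every other library.

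Division made little difference to Enpep in the Mll3/4 library. Cells with over 0.1% of their UMIs in 10 mitosis genes were counted as dividing, which made up 38.0% of the class in control, 53.4% in the Mll3, 59.4% in the Mll4 and 28.2% in the Mll3/4 library. Dividing cells had 344.8 CPM and non-dividing cells 336.4 CPM in the Mll3/4 library, a log2 ratio of 0.035 (-0.0011 to 0.072). In control, dividing cells had 26.5 CPM and non-dividing cells 40.6 CPM, a log2 ratio of -0.61 (-1.21 to -0.013). In the Mll3 library the values were 17.98 and 29.5 CPM, and in the Mll4 library 125.2 and 165.5 CPM. Both intervals of the log2 ratio included 0 there, from -1.52 to 0.12 and from -1.34 to 0.61. The direction in control was not kept when cells were chosen by B-cell transcripts in place of clusters, with a log2 ratio of 0.015. Among dividing cells alone, the Mll3/4 library exceeded control by 3.70 (3.32 to 4.11) on the log2 scale.

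Enpep was not detected in mature B cell-like cells and was sparse outside the B lineage. The mature B cell-like class, named from Ms4a1, Igkc, Ighd and other markers, held 37 control, 238 Mll3 and 11 Mll4 cells and no Mll3/4 cell. Of these 286 cells, 0 had an Enpep UMI, which allows a share of up to 1.05%. At 2000 UMIs per cell, 122 Mll3 cells and 18 control cells remained, which allow shares of up to 2.46% and 16.7%, against 3.70% and 7.03% of the B-cell progenitor-like cells of these libraries. At this depth the shares therefore did not separate mature from progenitor cells within a library. Over all UMIs, Mll3 mature B cell-like cells had 0 CPM (0 to 6.34), against 20.8 CPM (15.9 to 26.8) in Mll3 B-cell progenitor-like cells. These intervals do not overlap. In control the mature B cell-like cells allowed up to 43.0 CPM, above the 31.4 CPM of the progenitor-like cells. Outside the B lineage, Enpep had 0.0931 CPM in control, against 0.0679 CPM in the Mll3 and 0.185 CPM in the Mll4 library, from 14, 9 and 6 UMIs.

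Over these 3 libraries together, 29 UMIs fell in 17087 cells outside the B lineage, and megakaryocyte-like cells had the most, with 11 UMIs in 1815 cells (0.348 CPM, 0.174 to 0.622). Erythroid progenitor-like cells had 7 UMIs in 3685 cells (0.0479 CPM), and HSC/MPP-like cells, the stem and multipotent progenitors, had 4 in 3017 (0.0982 CPM). Granulocyte progenitor-like cells had 0 UMIs in 1245 cells. Only the interval of the megakaryocyte-like cells lies above the pooled level of 0.0920 CPM.

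The Mll3/4 library had 87 cells outside the B lineage, with 24 Enpep UMIs (13.5 CPM, 8.67 to 20.1). Of these UMIs, 20 came from 4 of 19 T/NK-like cells, which held 13, 4, 2 and 1. The first 3 of these cells also had 160, 85 and 114 UMIs of 6 B-cell genes (Cd79a, Cd79b, Vpreb1, Igll1, Ebf1 and Pax5). Outside the B lineage of this library there were 12.8 Enpep UMIs per 100 UMIs of Vpreb1, 14.6 per 100 of Ebf1 and 7.77 per 100 of Cd79a, against 12.0, 18.3 and 11.3 within the class. In the T/NK-like cells the same numbers were 27.4, 37.0 and 14.8. Enpep in these few cells thus came with other B-cell transcripts, in proportions that varied with the gene and the cells counted.

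Surface antibodies were read in the same cells. The B220 antibody, against the B-lineage form of CD45, was above its threshold of 38.9 counts in 98.9% of the class in control, 98.4% in the Mll3, 92.3% in the Mll4 and 14.0% in the Mll3/4 library. CD48, an adhesion molecule of blood cells, was above its threshold in 98.3%, 98.1%, 93.0% and 14.4% of the class. CD117, the Kit protein, was above its threshold in 9.55%, 4.88%, 21.0% and 80.3%. The cells with high Enpep RNA in the Mll3/4 library were thus mostly B220-low, CD48-low and CD117-high by these antibodies. No antibody against BP-1 was among the 13 surface antibodies, so the protein was not measured.

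Within the class of the Mll3/4 library, Enpep varied with the share of each of 4 antibodies, from 291.1 to 399.4 CPM. Ranked by their share of antibody counts, the lowest, middle and highest of 3 equal parts had 367.6, 360.9 and 291.1 CPM of Enpep for B220. For CD48 the parts had 399.4, 324.5 and 298.7 CPM. For CD117 they had 319.0, 341.5 and 356.4 CPM, and for CD127, the interleukin-7 receptor protein, 292.5, 330.5 and 392.9 CPM. Enpep was thus lower with a larger share of B220 and CD48 and higher with a larger share of CD117 and CD127. A larger share of one antibody leaves less for the others, so the 4 orders are not independent. In counts, cells of the class with and without an Enpep UMI had medians of 13 and 14 for B220 and 25 and 30 for CD48. The medians were 267 and 222 for CD117 and 48 and 36 for CD127. In the Mll4 library the parts by B220 had 247.5 (167.0 to 353.3), 96.8 (51.5 to 165.5) and 49.7 CPM (16.1 to 115.9), and in control 31.8, 33.2 and 27.9 CPM with overlapping intervals. The 5 control cells of the class below the B220 threshold held 5 of the 100 UMIs.

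**Figure D4:**
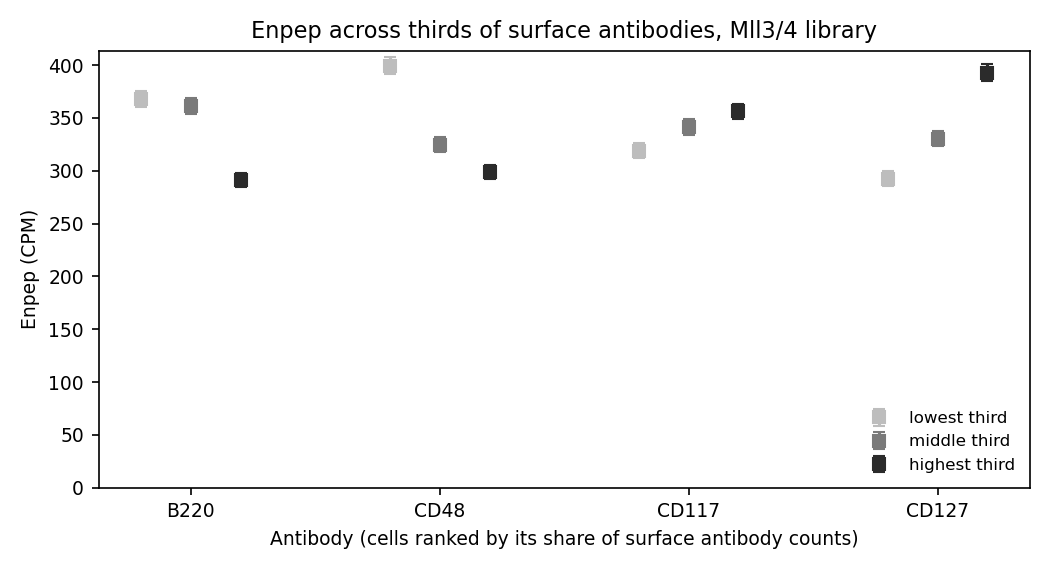
Enpep in CPM in 3 equal parts of the B-cell progenitor-like cells of the Mll3/4 library, ranked by the share of surface antibody counts for B220, CD48, CD117 or CD127, with bars for the 95% Poisson interval. Values fall from 367.6 to 291.1 CPM with B220 and climb from 292.5 to 392.9 CPM with CD127.

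The higher level in the Mll4 library rested on 33 cells, which differed from the other cells of the class in more than Enpep. A UMI of 4 Y-linked genes was found in 6 of these 33 cells (18.2%, 6.98% to 35.5%), in 47 of the 110 cells of the class without Enpep (42.7%, 33.3% to 52.5%) and in 46.5% of 5196 cells outside the B lineage, while Xist was found in 0 of the 33 and 0 of the 110. The median depth was 2367, 2182 and 5203 UMIs in the same order, so the share outside the B lineage is from deeper cells. Per UMI, the Y-linked genes stood at 85.9 CPM (from 7 UMIs), 211.1 CPM and 126.9 CPM. Gria2, Rnase12 and Epha5, named after their values were seen, had a UMI in 84.1%, 89.6% and 50.01% of the class in the Mll3/4 library. In the Mll4 library they were found in 4, 7 and 6 of the 33 cells with Enpep and in 1, 3 and 3 of the 110 without. Prlr, the prolactin receptor gene, was found in 80.6% of the Mll3/4 class, in 2 of the 33 and in 2 of the 110. In control, Gria2, Rnase12, Epha5 and Prlr were found in 9, 16, 1 and 4 of 61 cells with Enpep. Without Enpep they were found in 17, 64, 0 and 14 of 410 control cells. In the Mll3 library the numbers were 0, 7, 0 and 2 of 41 and 1, 60, 0 and 14 of 328. None of the 33 barcodes occurred in the Mll3/4 library, where Xist had a UMI in 97.5% of the class. The part of these values in the Mll4 result was not tested.

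Across clusters and libraries, the genes whose pattern was most like that of Enpep were again genes of the B-cell progenitor-like cells. Likeness was measured as Pearson's r of log2(CPM + 1) over 54 groups of at least 50 cells (cluster by library) among 12855 genes, where groups share libraries and depth, and the 4 groups of the class in the Mll3/4 library are highest. Rragd, a GTPase of nutrient signalling, came first (r = 0.98), followed by Alpl, tissue-nonspecific alkaline phosphatase (0.96), Amotl1 (0.96), Fxyd6 (0.96), Slit1 (0.95), Gm30948 (0.95), Adgrf1 (0.95), Mmp11 (0.95), Prlr, the prolactin receptor (0.94), and Nkd2 (0.94). Within the class Rragd stood at 15.7 CPM in control, 12.5 in the Mll3, 42.1 in the Mll4 and 124.7 in the Mll3/4 library, which is the order seen for Enpep. Alpl stood at 20.4, 21.9, 11.2 and 160.4 CPM, so that the Mll4 library was not above control. Prlr stood at 6.29, 5.90, 11.2 and 359.5 CPM. Over the 50 groups without the Mll3/4 library, an alternative chosen after seeing the data, Fxyd6 came first (0.96), and Igll1 (0.93), Rag2 (0.92) and Vpreb2 (0.91) were among the 10 highest.

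Cells with and without Enpep were also compared within the class of the Mll3/4 library, at 2000 UMIs per cell and in a separate draw. There were 2903 cells with a UMI and 3844 without, and log2 ratios of 8460 genes ran from -0.20 at the 5th percentile to 0.30 at the 95th, with a pseudocount of 5 CPM. The highest were Alcam, an adhesion molecule (31.0 CPM with and 14.96 without, log2 0.85), Cish, an inhibitor induced by STAT5 (40.6 and 20.7 CPM, 0.83), 1810059H22Rik (0.81), Igkc, the kappa light chain (0.80), and Rgs2 (0.78). Nt5e, the ectonucleotidase CD73 (0.76), Plac8 (807.1 and 483.2 CPM, 0.73), Gm8369 (0.72), Arl11 (0.70) and Colec12 (0.66) completed the first 10. The lowest were Flt3, a receptor of early lymphoid progenitors (20.7 CPM with and 36.8 without, -0.70), Gimap3 (-0.65), Ighv1-82 (-0.64), Inhba (-0.63) and Vps26c (-0.56). Hashtag1, 1 of 2 oligonucleotide tags whose meaning is not given, marked 58.8% of the cells with Enpep and 50.1% of those without. Within cells of Hashtag2, the ratio of Gm8369 was 0.08 and that of Colec12 was 0.027, while Alcam stood at 0.77 and Flt3 at -0.59.

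The interleukin-7 pathway was mixed. Interleukin-7 signals through its receptor (Il7r, Il2rg), the kinases Jak1 and Jak3 and the factors Stat5a and Stat5b. Of 15 members of the list, 3 were at least 2-fold higher in the class of the Mll3/4 library than in control, 5 were at least 2-fold lower and 7 lay between, against the 9.45% and 7.39% of all genes given above. The median log2 ratio was -0.41, against 0.02 over all genes. Il7r stood at 264.6 CPM in control, 248.3 in the Mll3, 320.0 in the Mll4 and 703.3 in the Mll3/4 library. Cish and Socs2, both induced by STAT5, stood at 11.6 and 84.5 CPM in control and at 25.6 and 211.05 CPM in the Mll3/4 library. The kinase gene Jak3 (11.6 to 2.82 CPM), Stat5a (20.7 to 9.51 CPM), the kinase gene Pim1 (120.1 to 54.4 CPM) and the cyclin genes Ccnd2 (84.5 to 32.0 CPM) and Ccnd3 (456.3 to 180.2 CPM) were the lower members. In the Mll4 library 2 of 14 measured members were at least 2-fold higher and 1 lower, against 8.19% and 8.52% of all genes. In the Mll3 library 0 were higher or lower, against 0.417% and 1.89% of all genes. With so few members, these numbers are near the shares of all genes. In the comparison of cells with and without Enpep, Cish (0.83), Il7r (0.42) and Socs2 (0.32) were the members past the 95th percentile of all genes.

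Stage antigens of B precursors did not move as a block. Of 15 members, 11 had at least 20 counts in either library, and 2 of these were at least 2-fold higher and 3 lower in the Mll3/4 class, against 9.45% of all genes higher and 7.39% lower. Their median log2 ratio was 0.11. Kit stood at 84.9 CPM in control against 191.8 CPM in the Mll3/4 library, and Il7r is given above. Cd93, an antigen of immature B cells, stood at 194.9 CPM in control, 180.9 in the Mll3, 182.5 in the Mll4 and 2.04 CPM in the Mll3/4 library. Bst1, the BP-3 antigen, stood at 93.0, 81.6, 75.8 and 3.53 CPM in the same order. Enpep and Bst1, both surface enzymes used to stage B precursors, thus lay on opposite sides of control. Cd24a and Spn, which are read with BP-1 in the Hardy stages, stood at 433.4 and 75.4 CPM in control and 497.7 and 42.9 CPM in the Mll3/4 library.

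Of 12 genes of the pre-B receptor and recombination, 0 were at least 2-fold higher and 3 were lower in the Mll3/4 class, against 9.45% of all genes higher and 7.39% lower. With so few genes, 0 higher is near the share of all genes. The median log2 ratio of the list was -0.42. Vpreb2, a surrogate light chain gene, was at 401.3 CPM in control, 261.8 in the Mll3, 81.4 in the Mll4 and 0.883 CPM in the Mll3/4 library. It shares much of its sequence with Vpreb1, so reads of the 2 genes may not be separated fully. Vpreb1 was at 3461.4 and 2836.1 CPM in control and the Mll3/4 library. The signalling genes Btk (78.9 to 4.06 CPM) and Syk (112.8 to 26.9 CPM) were the others. The recombinase genes Rag1 (326.8 and 387.8 CPM) and Rag2 (152.4 and 131.7 CPM) differed by less than 2-fold.

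Among 15 measured B-lineage factors, 1 was at least 2-fold higher and 4 were lower in the Mll3/4 class, where 9.45% and 7.39% of all genes were. The number higher is near the share of all genes, and the median log2 ratio was -0.44. Foxo1, a factor of the pro-B stage, stood at 119.7 CPM in control, 99.7 in the Mll3, 120.7 in the Mll4 and 475.65 CPM in the Mll3/4 library. Irf8 (81.1 to 8.55 CPM), Spib (27.7 to 3.14 CPM), Irf4 (39.0 to 11.8 CPM) and Tcf3 (228.2 to 101.7 CPM) were lower. Ebf1 and Pax5, which commit cells to the B lineage, stood at 2592.5 and 246.1 CPM in control and at 1852.6 and 367.8 CPM in the Mll3/4 library. Of the mitosis genes 2 of 10 and of the S-phase genes 5 of 15 were at least 2-fold lower and 0 were higher, beside 7.39% and 9.45% of all genes.

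**Figure D5:**
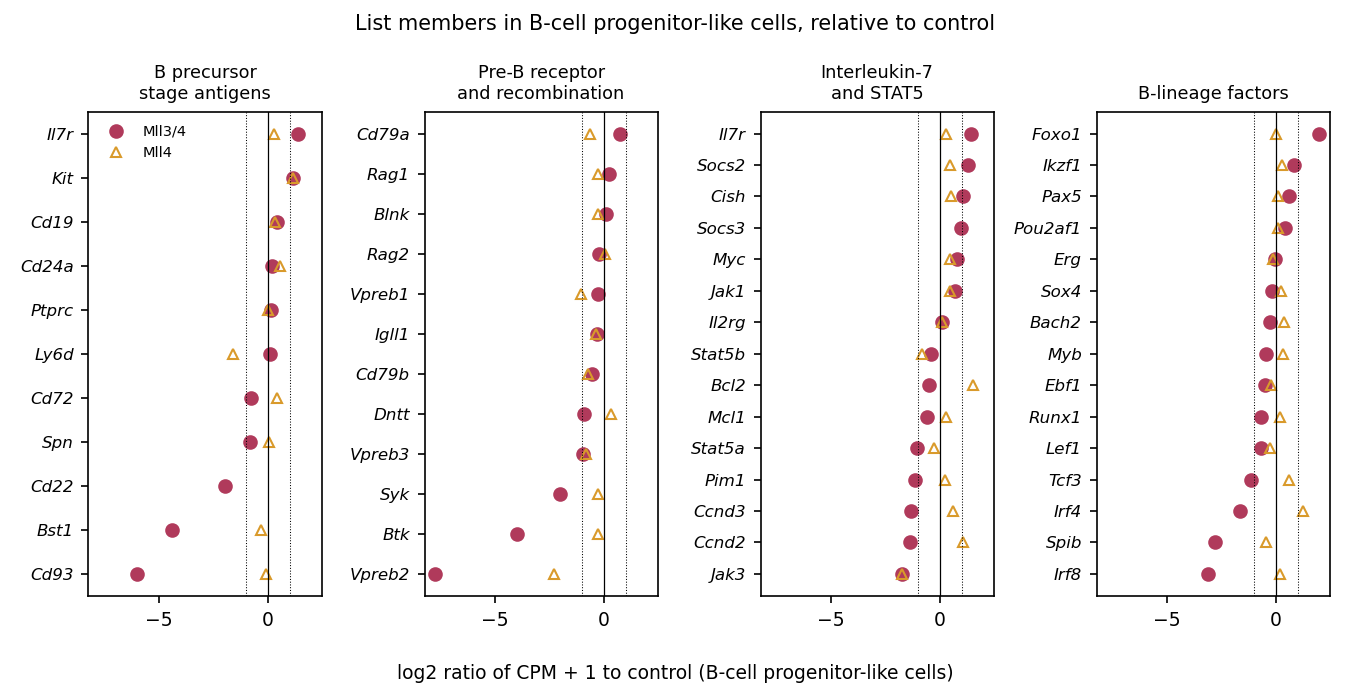
Log2 ratio of CPM + 1 to control in B-cell progenitor-like cells for measured members of 4 gene lists, with filled circles for the Mll3/4 and open triangles for the Mll4 library, and dotted lines at 2-fold. Foxo1, Il7r, Socs2, Kit and Cish lie beyond the upper line and Vpreb2, Cd93 and Bst1 far below the lower line in the Mll3/4 library.

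The enzyme's relatives and the angiotensin pathway were sparse in the class. Of 10 M1 aminopeptidases, the family of zinc enzymes to which aminopeptidase A belongs, 7 were measured in the class, with a median log2 ratio of 0.00092 in the Mll3/4 library. Of these 7, 0 were at least 2-fold higher and 1 was lower, near the 9.45% and 7.39% of all genes. The lower one was Lta4h, leukotriene A4 hydrolase (85.2 to 40.04 CPM). Erap1, which trims peptides for MHC class I, stood at 25.5, 26.0, 53.3 and 40.8 CPM in the control, Mll3, Mll4 and Mll3/4 libraries. Anpep had 0 counts in control and 1 in the Mll3/4 class, and Trhde and Lvrn had 0 in both.

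Of 16 angiotensin pathway genes, 6 were measured in the class, with 0 at least 2-fold higher and 3 lower, against 9.45% of all genes higher and 7.39% lower. The lower ones were Ctsg (215.3 to 9.04 CPM), Prcp (38.0 to 9.80 CPM) and Prep (141.4 to 48.0 CPM). Ctsg is a protease of granulocytes, and the 7 granulocyte progenitor markers, of which it is one, summed to 806.4 CPM in the control class, 962.3 in the Mll3, 881.4 in the Mll4 and 47.5 CPM in the Mll3/4 class. Their part in the result for Ctsg was not tested. The substrate gene Agt and the receptor genes Agtr1a, Agtr1b and Agtr2 had at most 2 counts in the class in control and in the Mll3/4 library. Over all kept cells Agtr1a had 311 counts in control and 3 in the Mll3/4 library.

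Of the neighbouring genes on chromosome 3 that are described here, some were higher and some lower in the Mll3/4 class than in control. Elovl6, a fatty acid elongase gene 199635 bases away, stood at 90.5 CPM in control against 125.0 CPM in the Mll3/4 library (log2 0.47, 0.30 to 0.64). Egf had 1 and 117 counts (0.314 and 1.54 CPM, log2 2.29, -0.21 to 7.61). Of the 3 further genes on that side, Lrit3 had 0 counts in both, Rrh 0 and 5, and Gar1 stood at 75.1 and 75.8 CPM. On the other side, Fam241a, Ap1ar, Tifa and Alpk1 lie at least 1372851 bases away, and the first 3 were lower in the Mll3/4 class (25.8 to 11.9, 103.1 to 42.7 and 587.1 to 98.8 CPM).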

How the data were processed

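Gene and surface antibody counts were measured in 4 single-cell libraries. The deposited matrices hold raw UMI counts per barcode, made with Cell Ranger 6.1.2 per the file headers, on mm10 per the submitters' processing notes, with 32285 gene and 15 antibody features. Deposited gene UMIs ran from 36413830 to 174795636 per library. Barcodes with at least 500 genes, 1000 UMIs and at most 10% mitochondrial UMIs were kept, and the highest Scrublet scores were removed at 0.8% per 1000 barcodes. Kept cells were clustered together in scanpy 1.11.5 (2000 variable genes, 30 components, 15 neighbours, Leiden resolution 1), without Enpep, Xist, Y-linked and mitochondrial genes, and named from marker lists. The rule compares each cluster with control cells outside it. Free RNA was not corrected. Counts were summed by library and class and scaled to CPM, counts per 1000000 gene UMIs. Intervals are exact Poisson, Clopper-Pearson or conditional binomial, with 1 exception. The interval of the Mll3/4 excess over the summed Mll3 and Mll4 log2 values is a normal approximation. With 1 library per group there was no test. UMI intervals and the limit of 3 counts at 0 cover counting error only. Antibody thresholds are crossing points of 2-component mixtures in control. Dividing cells were set by mitosis genes.

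The gene, the lists and the markers were chosen with earlier results of these data known. Named genes were Enpep, the 10 most correlated genes, the 10 highest and 5 lowest genes of cells with against without Enpep, 5 protein-coding neighbours on each side and members of 9 lists. A result covered by this rule is not reported here. All list symbols were found, 2010111I01Rik as Aopep. On Poisson counts simulated for the class, 94% to 98% of intervals held the true ratio in 4 fold sizes over 200 genes. The intervals assume the same model, so this checks the calculation only. Enpep counts varied more among cells than this model, as given above, and the simulation does not cover that. TMM factors came from edgeR 4.0.16. Protein sequence was not used here.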

Additional observations from a re-analysis of the deposited data

Results flagged for a closer look

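Enpep was also read in barcodes that the comparisons leave out. In the Mll3/4 library, 876 barcodes that failed the cell filter held 1401 Enpep UMIs (771.1 CPM, 731.2 to 812.5), and 479 of them had a UMI. The same kind of barcode had 2.41 CPM in control, against 1.41 CPM in the Mll3 and 9.31 CPM in the Mll4 library. This level is above the 339.5 CPM of the B-cell progenitor-like cells kept in that library. The 491 barcodes removed as doublets from the Mll3/4 library had 2646 Enpep UMIs (365.1 CPM, 351.4 to 379.3), against 0.401 CPM in control. Both sets were marked because they carry signal above control in data outside the main measurement.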

How the results depend on the processing

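No paired analysis was possible because each group has 1 library. The ratio of the Mll3/4 library to control stayed positive in every alternative, from 7.10 to 8.89 over all cells and from 3.17 to 4.52 within the class (log2). Over all cells it was 7.15 with cells thinned to 2000 UMIs, 7.10 as a mean over cells and 7.58 with a pseudocount of 1 CPM. Within the class it was 4.52 with every barcode of at least 500 UMIs, 4.24 with the transcript gate and, chosen after seeing the data, 3.88 without the 5 highest cells of each library. The Mll4 ratio was 0.023 with thinned cells and 0.60 with the pseudocount over all cells, and 1.24 within the B220 gate. Outside the B lineage, Enpep was 345.1 CPM in the Mll3/4 library below the B220 gate and 2.91 CPM below the transcript gate, 0.138 CPM in the Mll3 library without doublet removal, and in the Mll4 library 0.0560 CPM in every barcode and 0.0620 CPM below the transcript gate. The first value is that high because most cells of the class are under the B220 threshold there.

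The log2 ratio of dividing to non-dividing cells turned to 0.015 in control with the transcript gate. It was 0.14 in the Mll3 library with thinned cells and -2.003 in the Mll4 library at resolution 0.5. In the Mll3/4 library it was -0.18 in the B220 gate, 0.10 with TMM scaling, 0.11 as a mean over cells, and, chosen after seeing the data, 0.16 in Hashtag1 and -0.085 in Hashtag2 cells. Shares of the class with a UMI moved with the depth, from 2.34% at 1000 UMIs to 12.95% unthinned in control, from 1.63% through 8.37% at 4000 UMIs to 11.1% in the Mll3 library, and from 26.8% through 60.5% to 78.4% in the Mll3/4 library. At 2000 UMIs the control share was 4.55% at resolution 0.5 and 4.58% with the transcript gate, the Mll3/4 share 36.8% in the B220 gate and 44.4% in every barcode, and the Mll4 share 7.10% in the B220 gate. The percentile among all genes moved over all cells to 99.95 (Mll3/4) and 72.6 (Mll4) with a pseudocount of 5 CPM and to 11.9 (Mll3) with no minimum. Within the class it moved to 99.8 (Mll3/4) with 5 CPM, to 99.8 and 98.4 (Mll4) and to 3.41 and 12.7 (Mll3) with a minimum of 100 counts and none. The causes of these moves were not tested beyond what is stated. Of 227 alternatives, 184 stayed within the counting interval of the main value or near its rank. The class of the Mll4 library rests on 48 Enpep UMIs.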

Other observations

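Each library carries 2 hashtags whose meaning is not given in the sources used here. Among B-cell progenitor-like cells with at least 80% of their hashtag counts in 1 hashtag, Enpep stood at 39.4 CPM (29.6 to 51.5) for Hashtag1 and 25.0 CPM (18.2 to 33.4) for Hashtag2 in control. The values were 21.6 (15.2 to 29.8) and 20.4 CPM (12.9 to 30.6) in the Mll3 library and 172.9 (115.8 to 248.3) and 105.1 CPM (63.3 to 164.1) in the Mll4 library. In the Mll3/4 library they were 386.7 (380.6 to 393.0) and 283.6 CPM (278.0 to 289.2). Hashtag1 cells thus had the higher value in each library, but the intervals were apart only in the Mll3/4 library. In the Mll3 library the share of cells with a UMI went the other way, at 10.7% for Hashtag1 and 12.0% for Hashtag2.

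Shallower cells had more Enpep per UMI in the Mll3/4 library. Cells of the class with 1000 to 2000 UMIs had 454.4 CPM (345.0 to 587.4), those with 4000 to 8000 UMIs had 373.2 CPM (362.4 to 384.3), and those with at least 16000 UMIs had 311.8 CPM (304.9 to 318.9). In the other libraries few Enpep UMIs fell in each bin, and such an order was not settled. Control had 0 Enpep UMIs in 30 cells at 1000 to 2000 UMIs, which allows up to 90.5 CPM. Its level was 44.6 CPM (29.1 to 65.4) at 2000 to 4000 UMIs and 45.7 CPM at 4000 to 8000. It was lower in deeper cells, at 23.0 CPM at 8000 to 16000 and 24.7 CPM (14.6 to 39.0) from 16000 UMIs, with overlapping intervals. The Mll3 library had 76.8 CPM from 2 UMIs in the shallowest bin, then 19.1, 27.5 and 25.4 CPM, and 0 UMIs in 25 cells from 16000 UMIs. The Mll4 library had 156.2, 133.4 and 140.9 CPM in its 3 bins up to 8000 UMIs, with overlapping intervals.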
